A study of Mus musculus with 98 samples.

Results

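McTEC is the study's label for mature cortical thymic epithelial cells (TEC), the epithelium of the outer thymus, and 1649 of the 21451 labelled cells of the newborn single-cell data carried it. The members were taken as the cells with this label in the authors' deposited annotation, whatever they expressed. All TEC labels together held 9083 cells, and PcTEC, the label for perinatal cortical TEC, held 4826 of them. The cells came from thymi at P0, from 3 Tbx1+/-Crkl+/- mice (HET) and 3 wild-type (WT) littermates. HET mice carried 1 *Tbx1* allele with a *lacZ* insertion and 1 germline *Crkl* null allele, in every cell of the body and not only in the epithelium. All 6 samples were sorted as live Ter119-CD45- cells and were fixed with RNAprotect before 10x Genomics 3′ capture. This sort keeps epithelium and mesenchyme and depletes red cells and leukocytes, although 26 to 237 cells per library carried a thymocyte label. As a second readout, bulk RNA of sorted cTEC from WT mice was used, with 6 libraries at P0 and 6 at 4 weeks of age.

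Cortical TEC meet the T cell precursors that enter the thymus. They attract and sustain them with the chemokines CCL25 and CXCL12, the cytokine IL-7 and the Notch ligand DLL4, and they display self peptides on MHC molecules, on which CD4+CD8+ thymocytes undergo positive selection. The peptides are made by enzymes that cortical TEC express, among them the thymoproteasome subunit β5t (*Psmb11*), the serine protease TSSP (*Prss16*) and cathepsin L (*Ctsl*). FOXN1 is the transcription factor that TEC need to form and to keep this programme.

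McTEC numbered 105, 381 and 208 cells in HET libraries 1, 2 and 3, and 98, 272 and 585 cells in WT libraries 1, 2 and 3. Unique molecular identifiers (UMIs, each standing for 1 captured transcript) were summed over the McTEC cells of a library, which gave between 272214 and 2130988 UMIs, and levels are stated as CPM, the UMIs of a gene per 1000000 UMIs of that sum. The median McTEC cell held 2045 to 2893 UMIs, depending on the library. The median PcTEC cell held 1.17, 1.29 and 1.11 times as many in HET libraries 1 to 3 and 1.14, 1.58 and 2.05 times as many in WT libraries 1 to 3. For shares of cells and genes per cell, cells of at least 2000 UMIs were thinned to 2000 and shallower cells were left out, which kept 1130 of 1649 McTEC and 3955 of 4826 PcTEC cells. By library this was 52.8% to 76.6% of McTEC and 69.3% to 97.2% of PcTEC. A median thinned McTEC cell showed 1147 to 1190 genes and a median thinned PcTEC cell 1186.5 to 1223. HET library 2 stood apart. Its McTEC sum had the highest share of ribosomal protein UMIs (14.9%, against 7.34% to 12.9% elsewhere) and the highest summed levels of the erythroid, thymocyte, fibroblast and endothelial marker lists, 429, 225, 2016 and 211 CPM, against 3.67 to 77.3, 29.4 to 69.9, 550 to 1256 and 20.6 to 88.2 CPM in the other 5 libraries. It also held 5 McTEC cells with 30 or more UMIs of *Chga*, a secretory granule gene of endocrine cells, and those 5 cells had 0 *Psmb11* UMIs and 2 *Prss16* UMIs between them. Cell barcodes that occurred in more than 1 library were few, with 4 McTEC cells among them.

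The label was first checked against its markers in the 5 TEC labels that had at least 10 cells in every library. *Psmb11* reached 271, 304 and 142 CPM in McTEC of HET libraries 1 to 3 and 220, 551 and 431 CPM in those of WT libraries 1 to 3. In PcTEC of the same libraries it reached 163.5, 196 and 120 CPM, and 188, 334 and 277 CPM. McTEC thus lay above PcTEC in each of the 6 libraries, although the ranges over libraries overlapped, and it was the highest of the 5 labels in 6 of 6 libraries. Mean *Psmb11* was 62.1 CPM in ItTEC (intertypical TEC), 57.6 CPM in PrTEC (proliferating TEC) and 15.7 CPM in MmTEC (a medullary label). The McTEC minus PcTEC difference on the log2(CPM + 1) scale was 0.53 ± 0.23 (SD, n = 6 libraries). Since the labels were assigned from the same counts, this and all further differences between labels are descriptions and carry no test.

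The sequence before the *Psmb11* start is shown because this gene is a marker of cortical TEC. FOXN1 is known to bind motifs with the core GACGC, which was sought on both strands and is in capitals. The 250 bases lie at chr14:54625060-54625309 on the plus strand (RefSeq, GRCm38.p6) and hold 2 matches, the first at position -239 from the start.
Psmb11: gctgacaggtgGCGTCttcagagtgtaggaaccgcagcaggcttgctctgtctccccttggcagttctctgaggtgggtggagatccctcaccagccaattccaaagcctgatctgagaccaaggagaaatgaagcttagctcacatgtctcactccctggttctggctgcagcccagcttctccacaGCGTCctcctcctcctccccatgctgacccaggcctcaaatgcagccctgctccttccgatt
GACGC occurred in the 300-base window (250 bases before to 50 after the start) of 26.8% of 22862 mouse promoters, and in 2 of the 6 genes of the cortical list that had a promoter in the table, *Psmb11* and *Enpep*. A match of these letters is a description of the window and does not show binding.

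*Prss16* was at 3312, 2461 and 2363 CPM in the HET and 2836, 3210 and 2680 CPM in the WT McTEC sums. It was the highest of the 5 labels in 6 of 6 libraries, but its lead over PcTEC was small, 0.27 ± 0.15 on the log2 scale (means of 2811 and 2311 CPM). Of McTEC cells thinned to 2000 UMIs, 94.4% had a *Prss16* UMI (94.4% before thinning), against 90.4% of PcTEC, 66.2% of ItTEC and 20.4% of the capsular fibroblast label CapFb1b, which should lack the gene and gives the level of free RNA. For *Psmb11* the thinned shares were 43.6%, 28.5%, 10.4% and 3.91% in the same order, and the unthinned ones 52.3%, 40.7%, 16.0% and 6.87%. Median depths before thinning were 2534, 3310.5, 2221 and 3163 UMIs. Both markers that the label is known for were therefore at their highest in McTEC, and both were also present in PcTEC. By library, the thinned CapFb1b share for *Prss16* was 27.0%, 31.8% and 25.3% in HET and 11.4%, 9.60% and 16.8% in WT, without overlap. For *Psmb11* the CapFb1b shares of HET and WT libraries overlapped.

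**Figure D1:**
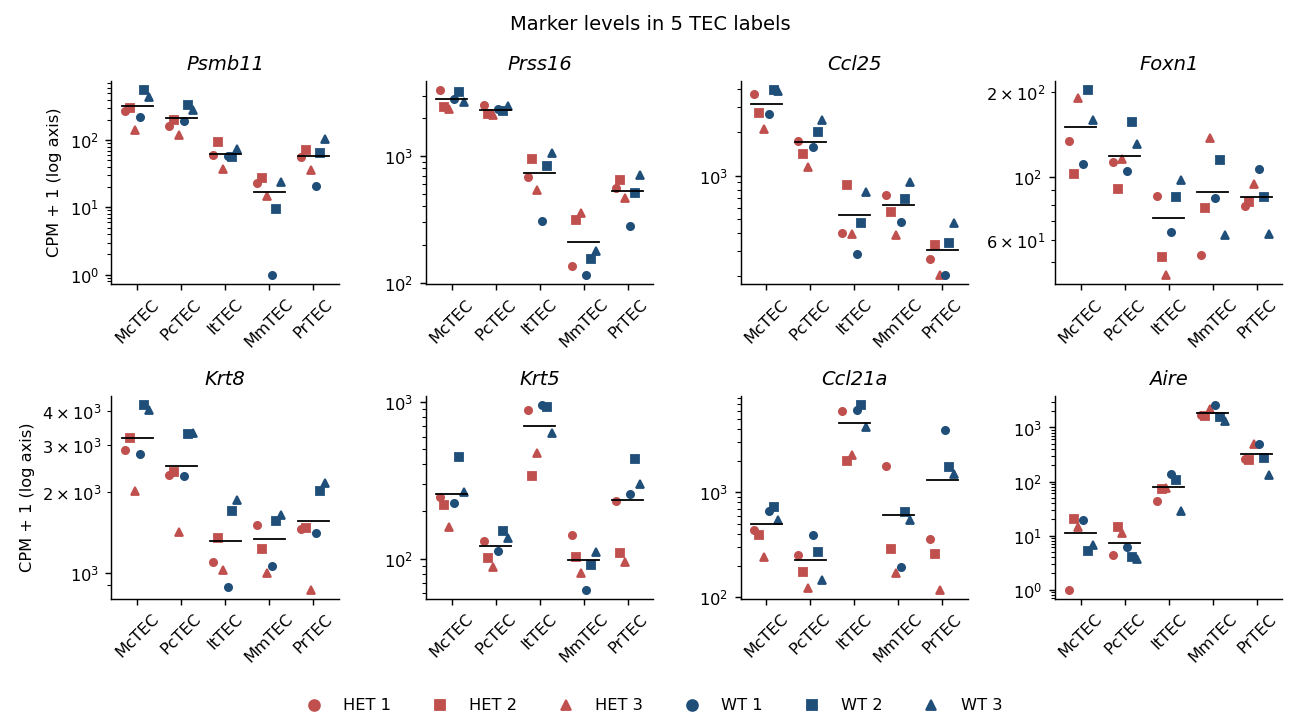
Level of 8 genes in 5 TEC labels, as CPM + 1 on a log axis, with 1 point per library (red HET, blue WT; circle, square and triangle for replicates 1, 2 and 3) and a line at the mean of 6 libraries. *Psmb11*, *Prss16*, *Ccl25*, *Foxn1* and *Krt8* were highest in McTEC in 6 of 6 libraries, *Krt5* and *Ccl21a* had their highest mean in ItTEC, and *Aire* had its in MmTEC.

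Among the other genes of the cortical list, *Tbata*, a gene enriched in the thymus, differed most. It was at 2189, 2692 and 1430 CPM in HET and 2388, 3334 and 2881 CPM in WT McTEC, and at 931 to 1705 CPM in PcTEC. The difference was 0.83 ± 0.16 on the log2 scale, and McTEC was highest of the 5 labels in every library. *Ctsl* was almost level between the cortical labels, at means of 19672 and 18847 CPM (0.06 ± 0.09, higher in 5 of 6 libraries). *Ly75*, which encodes the endocytic receptor DEC-205, and *Cd83*, which stabilizes MHC class II at the surface, were higher in 5 of 6 libraries, by 0.26 ± 0.24 and 0.17 ± 0.13. *Ackr4*, a scavenging receptor for CCL25 and CCL21, went the other way and was lower in McTEC in 6 of 6 libraries (-0.45 ± 0.20). Of the 8 genes of the list, 3 were higher and 1 was lower in McTEC in every library. Over all 4182 genes with at least 50 CPM in the higher of the 2 cortical labels, 521 (12.46%) were higher in McTEC in every library and 731 (17.48%) were lower.

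The signals that act on thymocytes were mixed. Among those with at least 50 CPM, *Ccl25* differed most. It was at 3665, 2711 and 2116 CPM in the HET and 2693, 3920 and 3877 CPM in the WT McTEC sums, against 1140 to 2436 CPM in PcTEC. The difference was 0.88 ± 0.15 on the log2 scale, and 92.1% of thinned McTEC cells had a *Ccl25* UMI against 71.0% of PcTEC and 29.6% of CapFb1b. *Il7* was higher in 6 of 6 libraries (means of 345 and 254 CPM, 0.44 ± 0.12). *Cxcl12* (0.12 ± 0.13), *Dll4* (-0.06 ± 0.34) and *Kitl*, the ligand of KIT on early thymocytes (-0.21 ± 0.32), took both signs over the libraries. Of the 8 genes of this list with at least 50 CPM, 2 were higher and 1, the angiogenic factor *Vegfa*, was lower in every library, and the median difference was 0.018 beside -0.017 over all 4182 genes.

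Of the 10 genes of the keratin and adhesion list with at least 50 CPM, 6 were higher in McTEC in every library and 1, the adhesion gene *Cdh1* (-0.45 ± 0.23), was lower, beside 12.46% and 17.48% of all genes, with a median difference of 0.26. *Krt14*, *Dsp* and *Epcam* took both signs. The simple keratins *Krt8*, *Krt18* and *Krt7* were higher by 0.36 ± 0.09, 0.46 ± 0.12 and 0.48 ± 0.17, and McTEC was highest of the 5 labels for each in every library. The basal keratin *Krt5* was at 247, 219 and 159 CPM in HET and 224, 441 and 265 CPM in WT McTEC, and at 87.3 to 149.3 CPM in PcTEC, so the label ranges did not overlap. Its highest mean was in ItTEC (700 CPM). The transcription factors *Foxn1* (means of 149.5 and 118 CPM, 0.31 ± 0.22) and *Trp63*, which maintains epithelial progenitors (409 and 313 CPM, 0.35 ± 0.18), were both higher in McTEC than in any other of the 5 labels in 6 of 6 libraries. *Epcam* was lower in McTEC in 5 of 6 libraries (-0.51 ± 0.31).

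Among the 15 genes with the largest mean difference towards McTEC, *Fxyd2* came next after *Gm26870*. It encodes a regulatory subunit of the sodium-potassium pump. *Fxyd2* was at 353, 235 and 171 CPM in the HET and 235, 253 and 301 CPM in the WT McTEC sums, and at 40.8 to 104 CPM in PcTEC. The ranges did not overlap, and the difference was 1.79 ± 0.51 on the log2 scale. *Scnn1a*, a subunit of the epithelial sodium channel, also belonged to the 15 (1.03 ± 0.31), as did *Bhlhe41*, a transcriptional repressor of the clock (1.24 ± 0.43), the phosphatase gene *Dusp28* (1.23 ± 0.44), the desmosome gene *Pkp1* (1.03 ± 0.39), *Crip3* (0.96 ± 0.21) and *Mmp2*, a matrix metalloproteinase (0.93 ± 0.25). *Crip3* had the highest counts of these, with 599 to 1087 CPM in McTEC and 357 to 533 CPM in PcTEC. *Skint7* and *Skint10*, from the family of *Skint1*, which is needed for the selection of a skin γδ T cell subset, were higher than in PcTEC by 1.14 ± 0.57 and 0.94 ± 0.40. The 15 genes were chosen against PcTEC alone, and 5 of them, *Skint7*, *Skint10*, *Pkp1*, *Krt5* and *Ccl21a*, were highest of the 5 labels in McTEC in 0 libraries. Mean *Skint7* was 66.8 CPM in McTEC, 211 CPM in ItTEC and 108.3 CPM in MmTEC, mean *Skint10* was 54.8, 133 and 391 CPM in the same order, and mean *Pkp1* was 54.8 CPM in McTEC and 82.4 CPM in ItTEC. The remaining members were *Gm26870*, *4631405K08Rik*, *Gm16141*, *Cysltr2*, *Krt5* and *Ccl21a*. Skint, Ccl21, Gbp and Hspa1 genes have near-identical copies, among which the counting may have split or dropped reads, so the levels of single members are uncertain.

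*Ccl21a* encodes a chemokine that attracts mature thymocytes to the medulla. It was at 435, 392 and 239 CPM in HET and 661, 717 and 542 CPM in WT McTEC, and at 120 to 394 CPM in PcTEC, higher in McTEC in 6 of 6 libraries (1.16 ± 0.43). Both cortical labels lay far below ItTEC, whose mean was 4561 CPM. A *Ccl21a* UMI was found in 23.5% of thinned McTEC cells, 13.8% of PcTEC, 59.4% of ItTEC and 10.1% of CapFb1b. *Aire*, which drives self antigen expression in the medulla, was in 1.59% of thinned McTEC cells and in 1.15% of CapFb1b, near the level of free RNA.

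**Figure D2:**
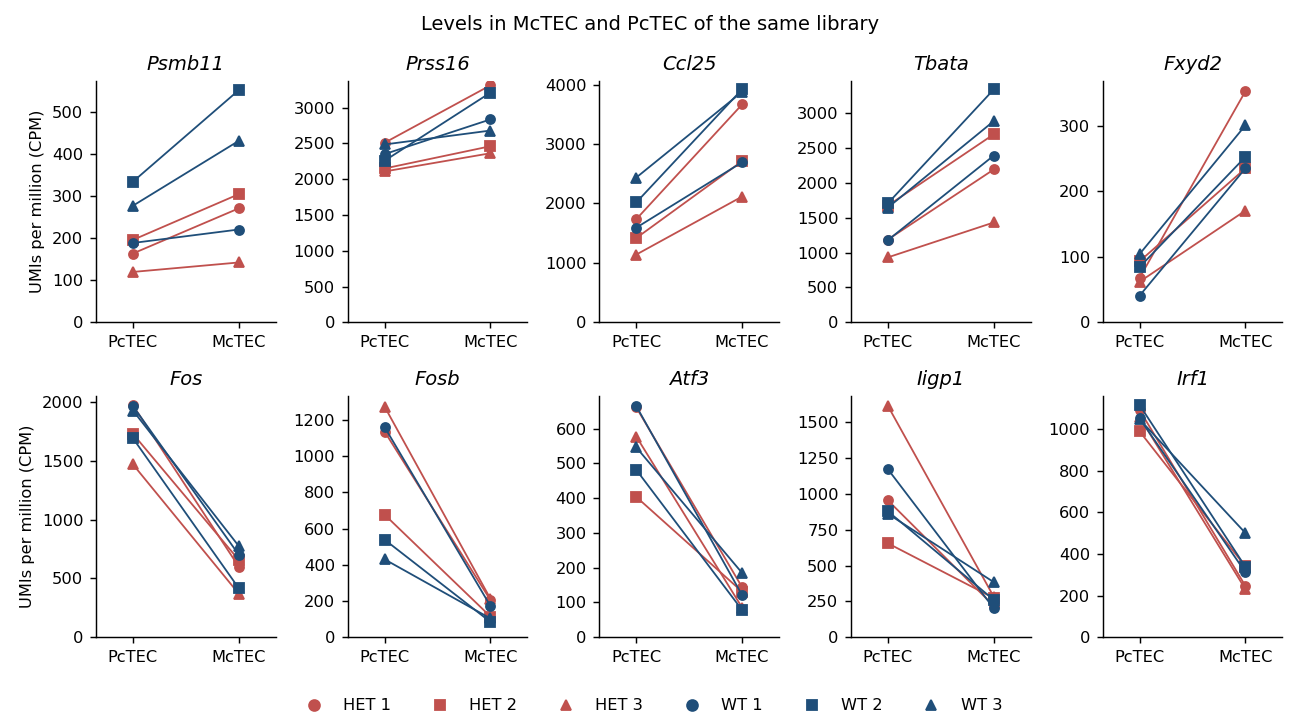
CPM of 10 genes in PcTEC (left) and McTEC (right), with a line joining the 2 labels of each library (red HET, blue WT; circle, square and triangle for replicates 1, 2 and 3). The 5 genes of the upper row were higher and the 5 of the lower row lower in McTEC in 6 of 6 libraries.

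The gene lists were chosen with earlier results of these data known, so counts of their members, here and below, are descriptions. In 2 of the lists, most members with at least 50 CPM were lower in McTEC than in PcTEC in every library. The first held the immediate early genes, which cells switch on within minutes of a stimulus, tissue dissociation included. Of the 15 genes of the stress and immediate early list with at least 50 CPM, 13 were lower in McTEC in every library and 0 were higher, beside 17.48% and 12.46% of all genes, with a median difference of -1.27. *Fos* was at 599, 657 and 370 CPM in HET and 702, 417 and 775 CPM in WT McTEC, and at 1468 to 1970 CPM in PcTEC, with no overlap (-1.65 ± 0.30). *Fosb*, at 84.6 to 212 CPM in McTEC and 430 to 1273 CPM in PcTEC, was lower by more (-2.51 ± 0.25). *Egr1* (-1.68 ± 0.39), *Jun* (-1.45 ± 0.18), *Ier2* (-1.36 ± 0.33), *Junb* (-1.23 ± 0.22) and *Atf3* (-2.19 ± 0.51) were also lower in each library. The exceptions were the heat shock genes *Hspa1a*, higher in 5 of 6 libraries (0.64 ± 0.57), and *Hspa1b*, higher in 4 of 6 (0.23 ± 0.38). After thinning, 49.1% of McTEC cells and 80.7% of PcTEC cells had a *Fos* UMI, and for *Fosb* 13.1% and 53.8%. Before thinning, the shares were 62.3% and 88.0% for *Fos*, and 19.5% and 64.9% for *Fosb*. In CapFb1b, which also expresses these genes, the thinned shares were 92.9% and 45.4%.

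The second held the genes that respond to interferon. Of the 14 genes of that list with at least 50 CPM, 9 were lower in McTEC in every library and 1 was higher, beside the same shares of all genes, with a median difference of -0.39. *Irf1*, a transcription factor induced by interferon-γ, was at 247, 340 and 231 CPM in HET and 312, 338 and 501 CPM in WT McTEC, and at 989 to 1115 CPM in PcTEC, with no overlap (-1.73 ± 0.42). The guanylate-binding protein gene *Gbp2* (means of 38.0 and 81.8 CPM, -1.09 ± 0.34) and the antiviral gene *Rsad2* (32.9 and 68.1 CPM, -0.99 ± 0.22) were lower in every library. *Bst2*, which encodes the virus-tethering protein tetherin, was the 1 higher gene (237 and 195 CPM, 0.29 ± 0.12). Several interferon-inducible GTPases lay among the 15 genes with the largest difference towards PcTEC, namely *Iigp1* (-1.89 ± 0.60), *Gbp4* (-1.91 ± 0.76) and *Gbp5* (-2.62 ± 0.66). *Iigp1* was at 202 to 385 CPM in McTEC and 656 to 1615 CPM in PcTEC. *Tmem173*, which encodes the DNA sensor adaptor STING, was among the 15 as well (-1.93 ± 0.67).

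The promoters of *Rsad2*, *Gbp2* and *Bst2* are printed because they hold the same kind of motif while the genes lay on either side of the McTEC and PcTEC comparison. Capitals mark GAAANNGAAA, letters shared by interferon-stimulated response elements, read on both strands, with overlapping matches run together. The 250 bases before each start (RefSeq, GRCm38.p6) lie at chr12:26456453-26456702 on the minus strand for *Rsad2*, at chr3:142620413-142620662 on the plus strand for *Gbp2*, and at chr8:71537473-71537722 on the minus strand for *Bst2*.
Rsad2: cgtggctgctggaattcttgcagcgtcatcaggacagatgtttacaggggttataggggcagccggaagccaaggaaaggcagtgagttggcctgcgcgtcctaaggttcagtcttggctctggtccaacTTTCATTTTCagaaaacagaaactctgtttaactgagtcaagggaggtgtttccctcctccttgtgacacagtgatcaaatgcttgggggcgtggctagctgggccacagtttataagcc
Gbp2: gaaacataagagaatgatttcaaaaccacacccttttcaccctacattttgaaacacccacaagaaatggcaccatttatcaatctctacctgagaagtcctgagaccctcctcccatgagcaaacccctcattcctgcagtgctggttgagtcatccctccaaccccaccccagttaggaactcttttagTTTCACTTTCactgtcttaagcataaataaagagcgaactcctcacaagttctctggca
Bst2: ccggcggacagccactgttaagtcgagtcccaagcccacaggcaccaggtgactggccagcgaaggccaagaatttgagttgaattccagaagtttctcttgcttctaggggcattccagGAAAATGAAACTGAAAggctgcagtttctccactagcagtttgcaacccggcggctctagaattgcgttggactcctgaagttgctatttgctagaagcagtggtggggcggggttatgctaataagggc
The promoters of *Rsad2* and *Gbp2* had 1 match each, at positions -120 and -59 from the start, and that of *Bst2* had 2 overlapping ones, from position -130. GAAANNGAAA was in 9 of the 10 promoters of the interferon list that the table held and in 3.58% of all promoters. In the 11 stress and immediate early promoters it was in 0, the CArG box of serum response factor was in 1 (*Zfp36*; 1.53% of all) and TGACGTCA, the full cyclic AMP response element, was in 1 (*Dusp1*; 1.85% of all). GACGC, which shares the letters GACG with the latter, was in 7 of those 11 (26.8% of all). It was in 2 of the 7 available promoters of the 15 genes that led McTEC and in 4 of the 7 of those that led PcTEC. These shares describe letters in a window and say nothing of which factor acted.

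The bulk cTEC libraries held 8481373 to 12943745 counts in genes each and came from other mice and another assay. They were used to ask how the genes that set McTEC apart from PcTEC at P0 differed between 4 weeks and P0. edgeR's quasi-likelihood test called 1600 of 13037 genes (12.3%) higher and 1302 (9.99%) lower at 4 weeks (Benjamini-Hochberg adjusted p under 0.05). Of the 15 genes that led McTEC, 14 could be tested, of which 9 rose and 0 fell, with a median log2 fold change of 1.10 beside 0.0051 over all genes tested. Of the 15 that led PcTEC, 12 could be tested, of which 0 rose and 5 fell, with a median of -1.22. Among all genes higher in McTEC in every library, 31.2% of the 507 tested rose and 8.88% fell. Among those lower in McTEC, 6.74% of the 712 tested rose and 28.1% fell.

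*Psmb11* ranged from 227 to 440 CPM at P0 (median 388) and from 896 to 1723 CPM at 4 weeks (median 1263), so the ages did not overlap. It rose by 1.95 ± 0.20 on the log2 scale (SE, adjusted p = 1.6e-05 in edgeR). *Ccl25* rose by 1.90 ± 0.19 (adjusted p = 1.5e-05) and *Tbata* by 1.63 ± 0.15 (adjusted p = 5.9e-06). *Fxyd2* lay between 14.4 and 28.8 CPM at P0 (median 18.5) and between 193 and 314 CPM at 4 weeks (median 242), a rise of 3.72 ± 0.18 (adjusted p = 4.9e-08). *Bhlhe41* (2.28 ± 0.34), *Dusp28* (1.82 ± 0.28), *Mmp2* (1.25 ± 0.14), *Krt5* (1.19 ± 0.20) and *Crip3* (0.94 ± 0.17) rose too, each with no overlap between the ages. *Prss16*, from 8284 to 17476 CPM at P0 and 11981 to 20003 CPM at 4 weeks, overlapped and did not pass (0.37 ± 0.20, adjusted p = 0.21), nor did *Foxn1* (0.39 ± 0.35, adjusted p = 0.47). *Trp63*, which was higher in McTEC, fell in bulk by 1.23 on the log2 scale (SE 0.19, adjusted p = 0.00036).

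Of the 16 stress and immediate early genes, 10 fell and 1, the chaperone gene *Hsph1*, rose, with a median of -1.87, beside 9.99% and 12.3% of all genes tested. *Egr1* ranged from 1311 to 3111 CPM at P0 and from 44.4 to 370 CPM at 4 weeks and fell by 3.34 on the log2 scale (SE 0.38, adjusted p = 3.7e-05). Of the 15 interferon genes tested, 3 rose and 3 fell. *Rsad2* fell by 1.41 (SE 0.24, adjusted p = 0.00091), whereas *Gbp2* (0.69 ± 0.11, adjusted p = 0.00041) and *Bst2* (1.09 ± 0.21, adjusted p = 0.0021) rose. The interferon list was thus lower in McTEC than in PcTEC in most members without a shared direction with age in bulk.

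The 4-week libraries also carried more RNA of other cells. The summed thymocyte list was 40.0 to 80.0 CPM at P0 and 747 to 3262 CPM at 4 weeks, and all 16 of its genes rose. The fibroblast list went from 17.8 to 135.7 CPM up to 365 to 2835 CPM, the erythroid list from 0 to 1.13 CPM up to 33.5 to 1405 CPM, and the medullary TEC list, which includes *Ccl21a*, from 198 to 498 CPM up to 850 to 5809 CPM. Their part in the bulk results was not tested. *Ccl21a* itself rose by 3.77 ± 0.48 (adjusted p = 8.6e-05), from 75.9 to 368 CPM up to 681 to 5653 CPM. In bulk samples, fewer cells of a type and less RNA per cell cannot be told apart.

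**Figure D3:**
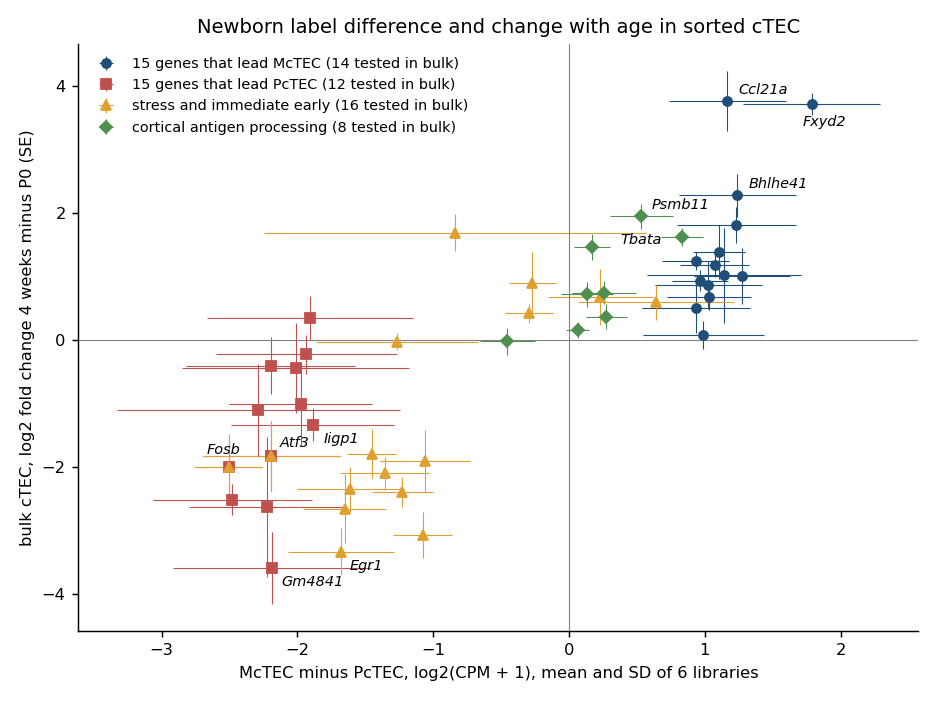
McTEC minus PcTEC difference at P0 (x axis, log2(CPM + 1), mean and SD of 6 libraries) against the log2 fold change of bulk cTEC from P0 to 4 weeks (y axis, edgeR, bars SE) for 4 gene groups. The 14 tested genes that led McTEC lay above 0 on the y axis, and 10 of the 16 stress and immediate early genes fell.

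The genotype comparison asked whether loss of 1 copy of *Tbx1* and *Crkl* changed the number or the state of McTEC. *Tbx1* was at 0 CPM in 5 McTEC sums and at 7.35 CPM in WT 1. *Crkl* was at 27.4, 22.0 and 16.7 CPM in HET and 18.4, 27.1 and 12.2 CPM in WT, with overlap. These 3′ tags may lie outside the altered parts of the alleles, so they check neither the labels nor the loss.

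McTEC made up 12.9%, 14.8% and 15.9% of TEC in the HET libraries and 14.7%, 20.0% and 24.8% in the WT libraries. The exact 95% intervals, which cover counting error only, ran from 10.7% to 15.4%, 13.47% to 16.3% and 13.9% to 18.0% for HET 1, 2 and 3 and from 12.1% to 17.6%, 17.9% to 22.2% and 23.0% to 26.6% for WT 1, 2 and 3. The interval of WT 1 overlapped those of all 3 HET libraries, that of WT 2 overlapped only that of HET 3, narrowly, and that of WT 3 overlapped none. The means were 14.5% ± 1.49 and 19.8% ± 5.03 (SD, n = 3 each), a difference of -5.27 percentage points. A two-sided exact permutation test gave p = 0.3, where 3 against 3 cannot go below 0.1. As a share of McTEC plus PcTEC the difference was -9.19 points (exact p = 0.3), and as a share of all labelled cells -1.16 points (exact p = 0.6). The shares of the HET and WT libraries overlapped, and the difference did not pass the test.

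edgeR's quasi-likelihood test of the McTEC sums tested 8686 genes and called 0 of them (0.0%) between HET and WT. At an unadjusted p under 0.05 it listed 463 genes (5.33%), 247 higher (2.84%) and 216 lower (2.49%) in HET. DESeq2 also called 0, with 245 at an unadjusted p under 0.05. The 2 genotypes did not overlap for 878 of the 8686 genes (10.1%). Without HET 2, edgeR called 10 of 8303 genes, 9 higher and 1 lower in HET, and listed 1437 at an unadjusted p under 0.05. The other fits that left out 1 library listed 209 to 858. With all 6 libraries, the same test called 0 genes in PcTEC (0.0%) and ItTEC (0.0%) and 9 each in MmTEC (0.148%) and PrTEC (0.162%). The p-values measure only the spread between these libraries, which may be technical in part. In simulated counts the McTEC genotype test recovered 22.1% of changes of 1 on the log2 scale, so 0 calls do not show equal levels. In CapFb1b, *Prss16* and *Ccl25* UMIs were in a larger share of thinned cells in each HET than in each WT library. The part of such free RNA in the genotype results was not tested.

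*Car3*, a carbonic anhydrase gene, came closest to the threshold. It was at 20.6, 135 and 13.4 CPM in HET and at 0, 0 and 4.69 CPM in WT McTEC, with a log2 fold change of 4.41 ± 0.76 (SE, adjusted p = 0.054 in edgeR). With 0 UMIs in 2 of the 3 WT sums, the size of this fold change is uncertain, and it was 8.31 without WT 3 and 3.87 to 4.91 without HET 1, HET 3, WT 1 or WT 2. Without HET 2 the gene did not pass the filter on low counts. In HET 2, 1 cell held 63 of the 129 *Car3* UMIs. *Meg3*, a maternally expressed imprinted non-coding RNA, was at 233, 378 and 308 CPM in HET and 169, 102 and 84.5 CPM in WT McTEC, without overlap (1.45 ± 0.32, adjusted p = 0.56). *Dusp28*, one of the 15 genes that led McTEC, was at 30.8, 33.6 and 28.4 CPM in HET and 69.8, 79.3 and 63.4 CPM in WT McTEC, also without overlap (-1.18 ± 0.31, adjusted p = 0.83). The other genes of smallest p were *Eppk1*, *Per1* and *Gm33195* (1.32 to 1.67, adjusted p of 0.56 to 0.83) on the higher side, and *Cnmd*, *Mphosph10*, *Gm266* and *Hey1* (-1.38 to -1.08, adjusted p = 0.83 each) on the lower side. None of these passed the threshold in this fit of 6 libraries without a replicate block. *Car3* passed without HET 1, HET 3 or WT 3 (adjusted p of 0.0042, 0.00059 and 3.9e-05 in edgeR) and with the block (5.6e-07), and *Gm33195* passed without HET 2 (adjusted p = 0.024). In PcTEC the log2 fold changes were 3.96 for *Car3*, 1.40 for *Meg3* and -1.13 for *Dusp28*, near those of McTEC. The other named genes had smaller ones in PcTEC, 0.16 to 1.07 on the higher side and -0.91 to -0.46 on the lower side.

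Neither of the markers separated the genotypes. *Psmb11* averaged 239 ± 85.5 CPM in HET and 401 ± 167.4 CPM in WT McTEC, with overlap (-0.78 ± 0.36, adjusted p = 0.83; -0.48 without HET 3 and -1.06 without HET 2, where it did not pass either), and *Prss16* averaged 2712 ± 522 and 2909 ± 272 CPM (-0.11 ± 0.38, adjusted p = 0.97). In PcTEC the log2 fold changes were -0.79 for *Psmb11* and -0.12 for *Prss16*, close to those of McTEC. Of the 8 cortical genes, 7 had a fold change below 0 in McTEC, with a median of -0.26 beside -0.0015 over all genes tested. Of these 8 genes, 0 had groups that did not overlap. The 8 tested MHC class II genes all had fold changes below 0 (median -0.37), as did 9 of 10 keratin and adhesion genes (median -0.44), beside 4358 of all 8686 genes. None was called. HET and WT libraries did not overlap for 2 of the MHC class II genes, *H2-DMb1* and *H2-Oa*, and for 1 of the keratin and adhesion genes, *Epcam*, all lower in HET, beside 10.1% of all genes. The interferon and stress lists had medians of -0.34 and -0.079. HET and WT libraries did not overlap for 1 of the 14 interferon genes, *Gbp2*, lower in HET, and for 0 of the 15 stress genes. Of the 11 transcription factors tested, 2 did not overlap, beside the same 10.1% of all genes. *Trp63* was higher in HET (0.81 ± 0.30, adjusted p = 0.83 in edgeR) and *Relb* lower (-0.41 ± 0.28, adjusted p = 0.84).

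Among the thymocyte support signals, 6 of the 10 tested genes had HET and WT libraries that did not overlap, beside 10.1% of all genes tested, and 0 were called. *Il7* was at 298, 270 and 288 CPM in HET and 349, 438 and 426 CPM in WT McTEC (-0.52 ± 0.30, adjusted p = 0.83). *Dll4* was at 37.7, 21.0 and 45.2 CPM in HET and 51.4, 64.7 and 48.8 CPM in WT (-0.74 ± 0.34, adjusted p = 0.83). *Flt3l*, the ligand of FLT3, was at 6.85, 9.44 and 11.7 CPM in HET and 22.0, 13.6 and 14.5 CPM in WT. These levels are few UMIs in the smaller sums, so its lack of overlap is uncertain. *Kitl* was likewise lower in all 3 HET libraries. *Vegfa*, at 126.7, 105 and 160.6 CPM in HET and 91.8, 68.9 and 75.6 CPM in WT, and the Notch ligand *Jag1* were higher in all 3 (0.74 ± 0.29 and 0.59 ± 0.30). In PcTEC the log2 fold changes were -0.46 for *Il7* and -0.70 for *Dll4*, close to those of McTEC. They were smaller in PcTEC for *Kitl* (-0.20), *Flt3l* (-0.091), *Vegfa* (0.38) and *Jag1* (0.32). Of the 15 genes that led McTEC, 3 did not overlap, beside the same 10.1% of all genes, and *Ccl21a*, *Dusp28* and *Bhlhe41* were all lower in HET. The 15 that led PcTEC had 0 such genes among the 12 tested.

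The fibroblast markers were read in the same sums. All 7 tested genes of that list had a fold change above 0 in HET McTEC (median 0.77), among them *Col1a1* (1.16 ± 0.36, adjusted p = 0.83). None was called, and HET and WT libraries overlapped for each. Their summed level was 788 to 2016 CPM in HET and 550 to 988 CPM in WT McTEC, also with overlap. In CapFb1b sums it was at least 11573 CPM. The 11 tested growth and imprinted genes, to which *Meg3* belongs, were all above 0 too (median 0.50). None was called, but HET and WT libraries did not overlap for 3 of them, *Meg3*, *Grb10* and *Plagl1*, beside 10.1% of all genes. The summed level of the growth and imprinted list was 1103 to 1865 CPM in HET and 744 to 1190 CPM in WT McTEC, with overlap. In CapFb1b sums it was at least 16820 CPM, above the fibroblast list. In PcTEC, *Col1a1* was higher in HET by 1.04 and *Meg3* by 1.40 on the log2 scale, near the McTEC values. *Grb10* (0.37) and *Plagl1* (0.91) were higher by less there. The part of fibroblast RNA in these differences was not tested.

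**Figure D4:**
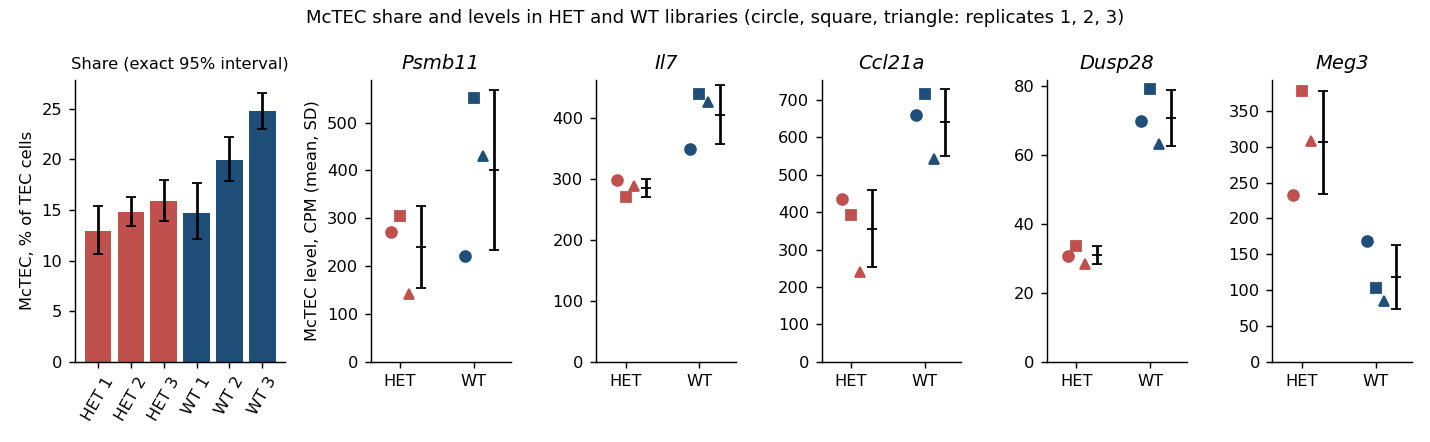
Left, McTEC as a percentage of TEC cells in each library, with exact 95% intervals. Right, CPM of 5 genes in the McTEC sum of each library (circle, square and triangle for replicates 1, 2 and 3) with mean and SD of 3 libraries. HET and WT overlapped for the share and for *Psmb11* and did not overlap for *Il7*, *Ccl21a*, *Dusp28* and *Meg3*, none of which passed the adjusted threshold.

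Whether the genotype difference itself differed between McTEC and PcTEC was tested as an interaction, with library as a term. Of 11734 genes, 5 were called (0.0426%), 2 towards a higher and 3 towards a lower HET minus WT difference in McTEC. *Gm26870*, an unnamed gene model, was higher in McTEC than in PcTEC by 0.55, 1.39 and 0.51 on the log2 scale in HET libraries 1 to 3 and by 3.90, 2.54 and 2.21 in WT libraries 1 to 3, without overlap. The interaction was -1.79 ± 0.27 (SE, adjusted p = 5.5e-05). The values behind it lay in PcTEC, with 32.4, 24.6 and 68.9 CPM in HET and 8.90, 18.97 and 8.46 CPM in WT, whereas in McTEC the genotypes overlapped.

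*Cxcl9*, a chemokine gene induced by interferon-γ, differed between McTEC and PcTEC by -4.02, -1.93 and -4.19 in HET and by 0.20, -1.84 and -0.9985 in WT (interaction -2.11 ± 0.43, adjusted p = 0.020). Its mean level was low in McTEC, 17.5 ± 15.8 CPM, against 70.2 ± 49.8 CPM in PcTEC (SD, n = 6 libraries). In the McTEC genotype test it did not pass the filter on low counts. *Tnfaip2*, which is induced by tumor necrosis factor, differed by -2.28, -1.86 and -3.19 in HET and -1.10, -1.70 and -0.98 in WT (-1.20 ± 0.26, adjusted p = 0.045). For both genes each HET difference was lower than each WT difference, narrowly so between HET 2 and WT 2. *Cxcl9* of WT 1 lay above PcTEC. Neither passed without HET 1, without HET 3, without WT 1 or without WT 3, where the adjusted p was 0.086 or more for each. The interaction of *Cxcl9* was -1.34 without HET 3 and -3.27 without HET 2, and that of *Tnfaip2* was -0.77 and -1.68.

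The other 2 genes rested on HET 2. *Pth*, the parathyroid hormone gene, was at 1777 CPM in McTEC of HET 2 and at 14.5 CPM or less in the other 5 McTEC sums (interaction 2.76 ± 0.38, adjusted p = 8.7e-06). The 5 cells with 30 or more *Chga* UMIs held 1375 of the 1694 *Pth* UMIs of that sum and 129 UMIs of *Pla2g7*, a phospholipase gene that was at 151.1 CPM in that sum and at 10.3 CPM or less in the other 5 (3.50 ± 0.50, adjusted p = 1.5e-05). The rest of the *Pth* UMIs of that sum lay in other McTEC cells of HET 2. PcTEC of HET 2 had 0 cells with 30 or more *Chga* UMIs but held 891 *Pth* UMIs, in 473 of 1379 cells. PcTEC of each other library held 80 *Pth* UMIs or fewer. *Pth* RNA in HET 2 was therefore not confined to the 5 cells, and its source was not tested. Without the cells of 30 or more *Chga* UMIs, 5 in HET 2 and 1 in WT 1, the interaction called 3 genes, all towards a lower difference. *Pth* and *Pla2g7* were then at 0.46 and 1.07 and did not pass. Without HET 2 they were at -0.97 and 0.67, and without WT 3 at 3.67 and 3.22, and neither passed in those fits.

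**Figure D5:**
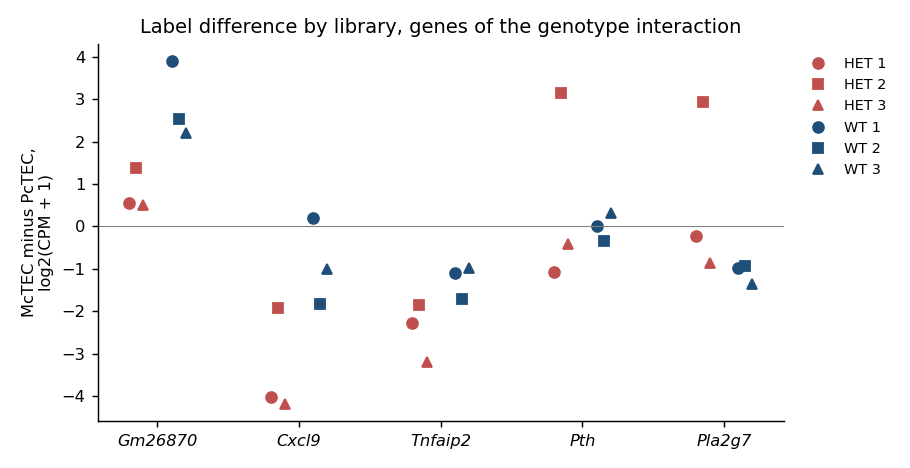
McTEC minus PcTEC difference of each library (log2(CPM + 1)) for the 5 genes of the genotype interaction, HET in red and WT in blue, with circle, square and triangle for replicates 1, 2 and 3. *Gm26870* separated the genotypes, *Cxcl9* and *Tnfaip2* lay lower in HET, and *Pth* and *Pla2g7* were at 3.15 and 2.93 in HET 2, above the other 5 libraries.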

How the data were processed

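Live Ter119-CD45- thymic stromal cells of 6 newborn mice (3 HET, 3 WT) were measured with 10x Genomics 3′ chemistry, and sorted cTEC of WT mice in bulk with an ultra-low input protocol (6 libraries each at P0 and 4 weeks). The authors deposited raw UMI counts per gene and cell, made with Cell Ranger 3.1.0 per their methods. They kept cells with over 1000 genes and under 5% mitochondrial UMIs, removed doublets called by DoubletFinder and contaminating clusters, and deposited a cell type label for each cell. Of the 1649 McTEC cells, 228 had 1000 genes or fewer in the deposited counts, with a lowest value of 900. Bulk gene counts were deposited as raw counts; the processing notes name STAR 2.5.3a and HTSeq. Rows that name no gene (10.2% to 12.9% of a bulk library) were left out. All columns of the 6 newborn single-cell libraries and the 12 bulk cTEC libraries were used as labelled. The bulk libraries of other sorted populations and the age series of nonepithelial cells were not used here.

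Cells are not replicates, so UMIs were summed per label and library. Sums and bulk counts were tested with edgeR 4.0.16 (filterByExpr, TMM, quasi-likelihood test, R 4.3.3), with Benjamini-Hochberg adjustment over all genes tested and a threshold of 0.05; DESeq2 1.42.0 was an alternative. McTEC and PcTEC were compared as log2(CPM + 1) within libraries, without a test. The pseudocount understates differences of low genes. Named genes were the 16 gene lists, the 15 largest mean differences in each direction among genes of at least 50 CPM with one sign in every library, the 5 smallest p in each direction of the genotype test, the 5 smallest p of the interaction, and *Tbx1* and *Crkl*. The members, gene lists and tests were chosen with earlier results of these data known. On simulated counts the McTEC genotype test recovered 22.1% of changes of 1 and 94.6% of changes of 2 on the log2 scale. The interaction test recovered 40.2% and 79.2%, and the bulk test 37.0% and 64.5%. Of the calls, 3.54%, 8% and 4.08% were false in the same order. Pairing of HET and WT libraries by replicate number was not shown (correlations of deviations 0.11, -0.14 and -0.43). Pairs of unlike number ran from -0.37 to 0.53, the highest being HET 2 with WT 3. So few correlations cannot exclude a shared origin of libraries. Promoters were taken from RefSeq (GRCm38.p6).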

Additional observations from a re-analysis of the deposited data

Results flagged for a closer look

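Of the 5 genes whose genotype difference was not the same in McTEC and in PcTEC by the interaction test, *Pth* (2.76) and *Pla2g7* (3.50) were led by HET 2, and *Gm26870* (-1.79), *Cxcl9* (-2.11) and *Tnfaip2* (-1.20) by lower McTEC minus PcTEC differences in HET libraries. For *Gm26870* the direction and the call were kept in each fit that left out 1 library, with values from -2.18 to -1.52. In the bulk cTEC, 42 groups of 6 libraries were examined for a library far from the others, of which chance picks about 1 in 20, and 2 had one. The same 4-week library was the lowest for *Fos* and for *Atf3*, at 2.57 and 0.43 on the log2(CPM + 1) scale.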

How the results depend on the processing

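The McTEC genotype test gave 0 calls with DESeq2, RLE size factors, sums thinned to the smallest library and equal numbers of cells. It gave 11 without a filter on low counts (10 higher, 1 lower in HET). With the replicate block it gave 1 (*Car3*), although pairing by number was not shown. It gave 0 to 10 when 1 library was left out, with 10 without HET 2, 2 without HET 1 or HET 3 and 1 without WT 3. The interaction gave 1 call with DESeq2 (*Gm26870*), 4 with RLE size factors, 7 without the filter and 1 to 8 when 1 library was left out, with 8 without HET 2 and 1 without WT 3. *Pth* reversed to -0.97 without HET 2 and was at up to 3.67, without WT 3. Chosen after seeing the data, leaving out cells with 30 or more *Chga* UMIs gave 0 calls for genotype and 3 for the interaction, and leaving out ribosomal protein genes gave 0 for genotype. The cause of these shifts was not tested, other than that the fits without a library or filter differ in samples or genes. Without a CPM minimum, 789 genes were higher and 1662 lower in McTEC in every library, and 3 and 5 of the 15 leading genes of McTEC and PcTEC were kept. Leaving out 1 library gave 613 to 632 and 786 to 861 genes and kept 12 to 14 and 11 to 14 of the leading genes. Thinned to 2000 UMIs per cell, *Fosb* was at -2.93, which moved by more than its SD. The McTEC share of TEC differed by -7.83 to -2.80 points when 1 library was left out and by -5.90 without PrTEC, and edgeR on cell numbers gave -0.45 on the log2 scale (-0.62 to -0.26 with 1 library left out, -0.42 with the replicate block), not past the threshold in any. Bulk calls were 2902, and 2909 to 4281 under the 4 alternatives, the label prefix as a term among them (3142).

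The smallest McTEC sum held 272214 UMIs, so genes of a few CPM rested on 1 or 2 UMIs there, and differences of such genes were not detectable at this depth.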

Other observations

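Antigen presentation genes took both directions between the cortical labels. The counts of genes higher or lower in McTEC in every library stand beside 12.46% higher and 17.48% lower of all 4182 genes with at least 50 CPM. Of the 13 genes of the MHC class I and proteasome list with at least 50 CPM, 5 were higher and 3 lower in McTEC in every library (median 0.13). The immunoproteasome subunit genes *Psmb9* and *Psmb10* were higher in McTEC in each library, by 0.27 ± 0.13 and 0.31 ± 0.07 (SD, n = 6 libraries). So were *Psmb5* (0.13 ± 0.06), *Psmb7* (0.22 ± 0.14) and *Psme2* (0.29 ± 0.15). *Psmb8*, also an immunoproteasome subunit gene but below 50 CPM, took both signs (-0.31 ± 0.44). The 3 lower genes were *Tap1* (-0.52 ± 0.22), *Tapbp* (-0.23 ± 0.21) and *H2-D1* (-0.10 ± 0.06). Of the 8 MHC class II genes with at least 50 CPM, 2 were higher in McTEC in each library, *H2-Oa* (0.44 ± 0.38) and *H2-DMa* (0.08 ± 0.04), and 1 was lower, *H2-Ab1* (-0.15 ± 0.08), while *H2-Aa* (0.04 ± 0.06) and *Cd74* (-0.08 ± 0.07) were among those that took both signs. In bulk cTEC, 8 of the 9 MHC class II genes and 10 of the 15 tested MHC class I and proteasome genes rose from P0 to 4 weeks, and 0 of either list fell, beside 12.3% of all 13037 genes tested that rose and 9.99% that fell. Of the lysosome and autophagy list, 1 gene was higher and 3 were lower in McTEC in every library, out of 12, which is near the shares of all genes.

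Of the 9 genes of the growth and imprinted list with at least 50 CPM, 3 were lower and 0 higher in McTEC in every library, beside 17.48% and 12.46% of all genes, with a median difference of -0.098. Below that level, *Hmga2*, a chromatin protein of growing fetal tissue, was at 9.39 to 22.0 CPM in McTEC and at 26.8 to 57.9 CPM in PcTEC, without overlap (-1.50 ± 0.15). The imprinted genes *Plagl1* (-0.90 ± 0.57) and *Peg3* (-0.28 ± 0.21) were lower in McTEC in each library. *Mki67*, a marker of dividing cells, averaged 19.4 CPM in McTEC and 32.8 CPM in PcTEC, and 3.54% and 6.04% of thinned cells had a UMI of it (4.79% and 9.99% before thinning), against 0.995% of CapFb1b. The cell cycle list had 1 gene of at least 50 CPM, *Hmgb2*, lower in 5 of 6 libraries. Of the transcription factor list, 2 genes were higher and 1, *Cited2*, was lower in McTEC in every library (-1.13 ± 0.51), out of 9. In bulk cTEC, 14 of the 20 cell cycle genes rose from P0 to 4 weeks and 0 fell, beside the same 12.3% and 9.99% of all genes, in libraries whose thymocyte markers rose as well, and the part of thymocyte RNA was not tested.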
